A study of Mus musculus with 4 samples.

Results

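Cytoplasmic ribosomal protein genes were examined in the hippocampus of mice with and without a Cre-driven deletion of Ipmk, which encodes inositol polyphosphate multikinase. Members were chosen by gene symbol: Rpl, Rps or Rplp followed by a number, without the Rps6k kinases and without pseudogene symbols ending in -ps. This gave 111 of 33793 probe sets, standing for 89 of 30921 gene symbols; 68 probe sets (53 symbols) belonged to the large subunit and 43 (36 symbols) to the small subunit. All probe sets of a gene were kept, and no member was left out for a low value. Some proteins of the ribosome, such as those encoded by Rpsa, Fau and Gnb2l1 (now Rack1), carry other symbols, so they were outside the rule and were read beside it.

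The study asked whether postnatal loss of IPMK in excitatory neurons changes gene expression. The right hippocampus was taken from male mice at postnatal day 90, and total RNA from each mouse was hybridised to an Affymetrix whole-transcript array. The group IPMK_WT held 2 arrays from Ipmk f/f littermates, and the group IPMK_cKO held 2 arrays from Ipmk f/f;CaMKII-Cre mice. The floxed allele was shared by both groups, so they differ by the Cre transgene, and no Cre-only mice were compared. CaMKII-Cre acts in excitatory forebrain neurons, whereas the hippocampus also holds interneurons, glia and vessels in which Ipmk is left intact. Within each genotype the arrays are numbered 1 and 2; the labels call these biological replicates and do not say whether a number marks a shared litter, day or run. Values are log2 signals, and 1 unit is a doubling of signal.

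Each cytoplasmic ribosome has a large and a small subunit, each built from ribosomal RNA and a set of proteins made in matched amounts. Many ribosomal protein mRNAs begin with a C followed by a run of pyrimidines, the 5′ terminal oligopyrimidine (TOP) tract, through which the mTOR pathway sets their translation. IPMK has been reported to bind mTOR, and S6 kinase, which phosphorylates the small subunit protein Rps6, acts downstream of mTOR. In neurons and glia alike, ribosomal protein mRNAs are among the most abundant messages, and processed pseudogenes of them are scattered through the mouse genome.

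Start-site sequences of members are shown because the TOP tract is the shared feature the symbol rule did not use. RefSeq promoter entries (GRCm38.p6, 250 bases before to 50 after the annotated start) were matched by symbol for 66 of the 89 symbols. A start-site run was a C followed by at least 4 further C or T letters. The C had to lie within 5 bases of the start on the transcribed strand. It could lie inside a longer stretch of C and T letters, as in Rpl14, and the run was counted from it. Such a run was found in 31 of the 66 genes (47.0%), beside 21.2% of 27025 genes with an entry. The letters CGGAAG, a core of ETS factor motifs, were present on either strand in 43 genes (65.2%, beside 18.8% of all). AAGATGGC, part of a YY1 motif, was present in 6 genes (9.09%, beside 3.19%) and TATAAA in 8 genes (12.1%, beside 15.7%). These are matches of letters, not measured binding sites. In the sequences below, each 85 bases from 60 before the start to 25 after it, capitals mark the pyrimidine run from its counted C on. The large subunit genes Rpl13a (chr7:45128721-45128805, minus strand), Rpl14 (chr9:120571457-120571541, plus strand), Rpl38 (chr11:114668520-114668604, plus strand) and the small subunit genes Rps9 (chr7:3703981-3704065, plus strand) and Rps21 (chr2:180257319-180257403, plus strand) carried the run and had bright probe sets marked unique, on which results below turn.
Rpl13a: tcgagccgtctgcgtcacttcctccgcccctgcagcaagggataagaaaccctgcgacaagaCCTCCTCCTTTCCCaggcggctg
Rpl14: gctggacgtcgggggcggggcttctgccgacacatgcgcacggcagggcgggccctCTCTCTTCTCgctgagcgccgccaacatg
Rpl38: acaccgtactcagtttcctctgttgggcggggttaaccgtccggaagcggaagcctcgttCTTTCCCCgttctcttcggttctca
Rps9: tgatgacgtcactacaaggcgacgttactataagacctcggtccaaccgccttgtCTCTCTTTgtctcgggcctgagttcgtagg
Rps21: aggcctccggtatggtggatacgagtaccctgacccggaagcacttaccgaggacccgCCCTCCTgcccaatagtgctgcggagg
Rpl4: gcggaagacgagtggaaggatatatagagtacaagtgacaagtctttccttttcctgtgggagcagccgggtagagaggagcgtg
Rpl4 (chr9:64173327-64173411, plus strand), also bright and unique, had no such run at its annotated start. The same held for Rpl10a, Rps3, Rps4x and Rps25, which also had bright probe sets marked unique. Rps27 (chr3:90213624-90213708, minus strand) and the retrogene Rps27rt (chr9:114982715-114982799, minus strand) are shown because the windows shared an identical stretch of 38 bases, opening 1 base after the start of Rps27 and at the start of Rps27rt.
Rps27: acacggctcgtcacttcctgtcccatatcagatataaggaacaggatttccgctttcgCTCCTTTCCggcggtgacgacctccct
Rps27rt: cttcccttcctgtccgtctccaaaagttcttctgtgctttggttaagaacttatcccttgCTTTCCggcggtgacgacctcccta
Upstream of this stretch the windows differed, and the CGGAAG and AAGATGGC letters were matched in the Rps27 window and not in the Rps27rt window.

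The array reads members with unequal certainty. A probe set averages 8 to 32 probes (median 16), and 85 of the 111 probe sets are marked as unique and 26 as cross-hybridizing, meaning that their probes can also bind other transcripts. Counted by gene, 69 symbols had 1 probe set, 18 had 2 and 2 had 3. For 13 probe sets the array's own coordinates (genome build not named there) lay away from the gene's RefSeq locus, 12 of them on another chromosome, and all 13 are marked cross-hybridizing. Rps3a2, Rps3a3 and Rps4l are annotated in RefSeq as pseudogenes, and Rps19bp1, a binding protein of Rps19, matches the symbol pattern without being a ribosomal protein. A probe set's signal is compared between arrays only, since the brightness of different probe sets does not rank their mRNAs.

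Array medians lay between 5.10 and 5.15. The targeted gene went against its label: Ipmk read 7.68 and 7.71 in the IPMK_WT arrays and 8.44 and 8.78 in the arrays labelled IPMK_cKO on 1 probe set, and 5.78 and 5.52 against 6.97 and 6.43 on the other. Both were higher in the arrays labelled IPMK_cKO without overlap, by 0.92 ± 0.15 (SE) and 1.05 ± 0.21, with adjusted p = 0.9999 in limma. The sources do not say which probes lie inside the deleted part of the gene, so the reading neither checks nor settles the label. No probe set of the 33793 passed an adjusted p of 0.05 in limma for either comparison. Excitatory neuron markers, which define much of this tissue, were well above the array medians (mean levels 8.78 to 9.12).

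No ribosomal protein signal was called as different between the genotypes. Between the arrays labelled IPMK_cKO and the IPMK_WT arrays, the median difference was 0.01 over large subunit probe sets and -0.02 over small subunit probe sets, beside -0.00 over all probe sets. Of the members 57 were higher and 54 lower in the arrays labelled IPMK_cKO, while 48.4% of all probe sets were higher and 51.6% lower. None of the 111 passed limma's adjusted threshold (background 0.0%). At an unadjusted p under 0.05, 1 member was higher and 1 lower, where the background was 0.979% and 1.88% (2.86% in either direction). The local pooled error (LPE) test, the method named by the study, called 0 members and 2 probe sets in all (0.00592%, of which 1 higher, 0.00296%). Groups did not overlap for 10 members higher and 7 lower, beside 12.4% and 14.8% of all probe sets. A probe set whose replicate numbers do not overlap cannot also separate the genotypes. That was the state of 61 members higher and 13 lower in replicate 2, beside 22.0% and 22.7% of all probe sets. Fewer of the members could therefore enter the count by genotype, and it does not bear on a genotype difference. For 72 of the 111 members the 95% interval of the difference lay within 1.5-fold, as it did for 75.2% of all probe sets; for the others a change of that size was within the error of 2 arrays against 2.

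Rps15, a protein of the small subunit head, had the lowest genotype p among members. It read 3.90 and 4.18 in the IPMK_WT arrays and 4.67 and 4.88 in the arrays labelled IPMK_cKO. The groups did not overlap, and the difference was 0.73 ± 0.15 (SE, limma unadjusted p = 0.0037, adjusted p = 0.9999). This was the only member that differed by over 1.5-fold between genotypes (0.63% of all probe sets), and its 9 probes gave a dim signal, below the array medians. Rps24, also of the small subunit, read 5.24 and 5.68 against 5.72 and 5.96, a difference of 0.38 with no overlap (limma unadjusted p = 0.091, adjusted p = 0.9999). Rpl37a, a zinc-binding protein of the large subunit, read 5.87 and 5.93 against 5.98 and 6.41. Its difference of 0.30 rested mainly on replicate 2 of the arrays labelled IPMK_cKO.

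On the lower side, a dim probe set of Rpl30 (11 probes) read 4.52 and 4.81 in the IPMK_WT arrays and 4.13 and 4.35 in the arrays labelled IPMK_cKO, with a difference of -0.43 ± 0.16 (SE; limma unadjusted p = 0.039, adjusted p = 0.9999). The other Rpl30 probe set, inside the same gene and with 20 probes, went the opposite way by 0.25 with overlapping groups (5.51, 6.33 against 5.69, 6.64). So the 2 readings of this large subunit gene did not give a common direction. Rpl39, a small protein at the exit of the peptide tunnel, read 5.69 and 5.87 against 5.44 and 5.60 and differed by -0.26 with no overlap (limma unadjusted p = 0.11). Rps6, the substrate of S6 kinase, read 5.16 and 5.41 against 5.15 and 5.20 on the probe set at its own locus, and these groups overlapped. None of the 31 members with a mean of at least 8 separated the genotypes, where 434 higher and 191 lower of 3878 probe sets as bright did. For 30 of the 31, both arrays numbered 2 lay above both arrays numbered 1. A probe set in that state cannot also separate the genotypes, so this count does not bear on a genotype difference.

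**Figure D1:**
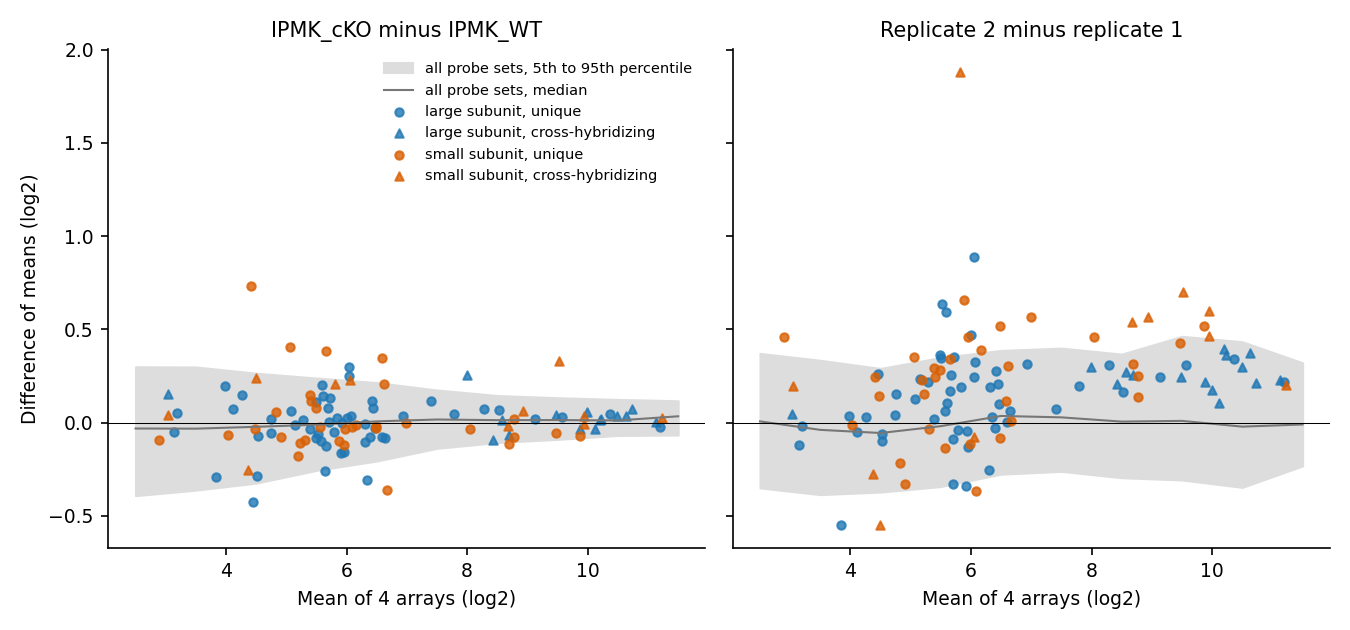
Differences (log2) against the mean log2 value of each probe set for the genotype comparison and for replicate 2 minus replicate 1, with members drawn over the spread of all probe sets. In the genotype comparison the members with a mean of at least 8 lie on both sides of 0, from -0.11 to 0.33 (median 0.02). In the replicate comparison the same 31 probe sets all lie above 0, from 0.11 to 0.70.

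The arrays numbered 2 carried higher ribosomal protein signals than the arrays numbered 1, in both genotypes. The median difference, replicate 2 minus replicate 1, was 0.19 over large subunit and 0.25 over small subunit probe sets, beside -0.01 over all probe sets. Of the 111 members 86 were higher and 25 lower, beside 48.6% and 51.4% of all probe sets, and 7 differed by over 1.5-fold, beside 1.82%. The 2 arrays of one number lay above both arrays of the other for 61 members higher and 13 lower, where 22.0% and 22.7% of all probe sets did so. Replicate 2 was higher within both genotypes for 70 members and lower for 15, beside 28.7% and 30.2%. For 62 members the 95% interval lay within 1.5-fold, beside 75.1%. The median was 0.14 within IPMK_WT and 0.28 within the arrays labelled IPMK_cKO, and the difference between these 2 medians was not tested.

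No member passed limma's adjusted threshold in this comparison (background 0.0%), and the lowest adjusted p among members was 0.144. At an unadjusted p under 0.05, limma had 33 members higher and 4 lower, where 6.6% and 5.51% of all probe sets were. With a variance prior that follows intensity, limma called 18 members, all higher (background 1.84% higher, 2.61% in either direction), and the LPE test called 17, all higher (1.93%, and 2.69% in either direction); 15 were called by both. Whether members count as changed between replicate numbers therefore depended on how the spread between 2 arrays was estimated. An exact permutation test over 2 arrays against 2 cannot go below p = 0.333.

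The difference was clearest among bright probe sets. At a mean log2 value of at least 8, a line drawn after the values were seen, all 31 members were higher in replicate 2, with a median of 0.30, beside 50.6% of 3878 probe sets as bright. Of these 31, 30 did not overlap (background 34.9%), and 19 had an unadjusted limma p under 0.05 (12.6%). The exception to separation was the Rpl3 probe set on the X chromosome, which read 10.14 and 10.13 in the IPMK_WT arrays and 10.00 and 10.21 in the arrays labelled IPMK_cKO. Just outside the line lay a probe set of Rpl6 (mean 7.998, difference 0.30) and that of Rpl18 (7.78, 0.20); just inside lay Rps25 (8.05, 0.46) and Rpl10a (8.28, 0.31). Below the line the median of 80 members was 0.13, and 55 were higher.

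The higher values were not confined to probe sets marked cross-hybridizing. Of the 31, 12 are marked unique, and replicate 2 lay above replicate 1 without overlap for all 12, with a median difference of 0.31. Among large subunit genes, Rpl38 read 10.18 and 10.20 in the arrays numbered 1 (IPMK_WT, then labelled IPMK_cKO) and 10.50 and 10.57 in those numbered 2. Its difference was 0.34 ± 0.09 (SE; limma adjusted p = 0.327, and 0.017 with the intensity prior). Rpl14 read 9.44 and 9.39 against 9.67 and 9.78, and Rpl4, a long protein lining the peptide tunnel, read 11.10 and 11.07 against 11.31 and 11.29. Both pairs were apart by more than the spread within a number. Rpl13a, which in human cells also silences inflammatory mRNAs outside the ribosome, read 8.44 and 8.44 against 8.54 and 8.67, a smaller difference of 0.17 whose 95% interval (-0.09 to 0.42) included 0. Rpl10a and Rpl8 differed by 0.31 and 0.24.

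**Figure D2:**
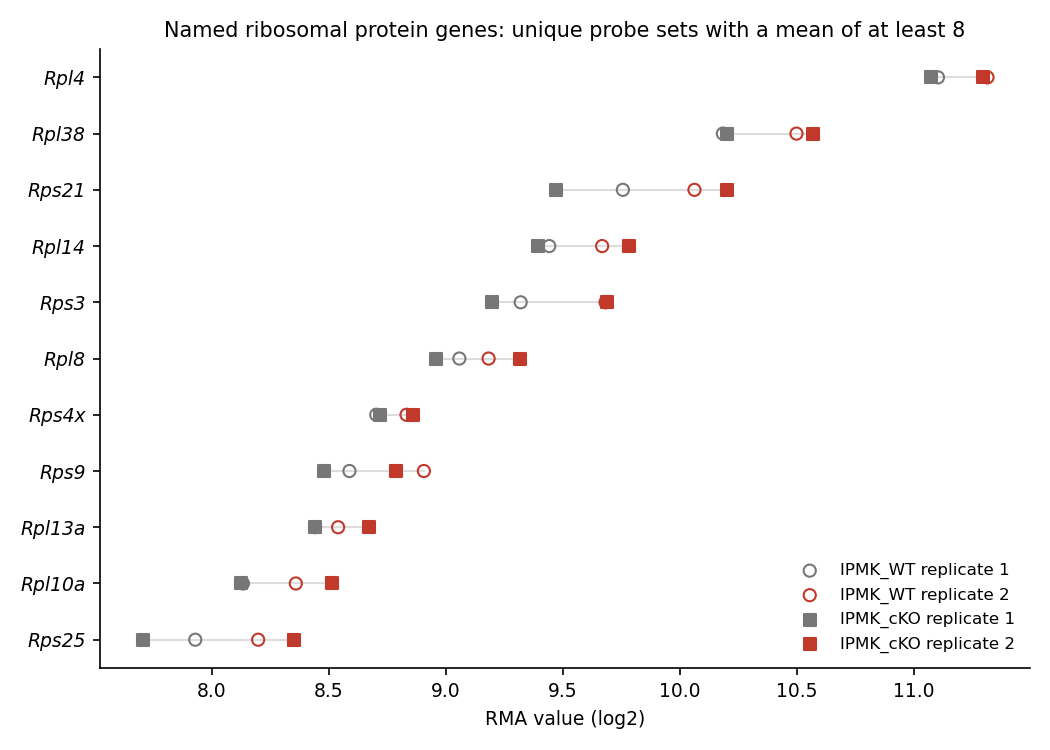
Log2 values of the named members marked unique with a mean of at least 8 (rows) in each of the 4 arrays; circles are IPMK_WT arrays and squares the arrays labelled IPMK_cKO, grey for replicate 1 and red for replicate 2. In each row both red points lie to the right of both grey points; levels are to be compared within a row only.

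Small subunit genes gave larger values among the bright members, with a median of 0.46 over 12 probe sets against 0.24 over 19 of the large subunit; this gap was not tested. Rps21 read 9.76 and 9.47 in the arrays numbered 1 and 10.06 and 10.20 in those numbered 2. Its difference was 0.52 ± 0.13 (SE; limma adjusted p = 0.318, and 0.036 with the intensity prior). Rps3, which sits at the mRNA entry channel and also acts in DNA repair, read 9.32 and 9.20 against 9.68 and 9.69, a difference of 0.43 ± 0.10 (limma adjusted p = 0.303). Rps25, needed for internal ribosome entry by several viral RNAs, read 7.93 and 7.70 against 8.20 and 8.35. Rps9 and Rps4x differed by 0.31 and 0.13. Rps4x had the smallest difference of the unique bright members, and its arrays still did not overlap (8.70 and 8.72 against 8.83 and 8.86).

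Among bright probe sets marked cross-hybridizing, Rps3a3, annotated as a pseudogene of Rps3a, had the largest difference. It read 8.88 and 9.45 in the arrays numbered 1 and 9.82 and 9.91 in those numbered 2, with 0.70 ± 0.20 (SE; limma adjusted p = 0.337). Both Rps12 probe sets, at the gene and on chromosome 19, were higher by 0.60 and 0.54. Rps27a encodes ubiquitin fused to a small subunit protein, and its probe set on chromosome 9 was higher by 0.57 (8.63 and 8.67 against 9.18 and 9.25). The bright Rps6 probe set, on chromosome 2 and away from the Rps6 gene, read 11.12 and 11.14 against 11.31 and 11.35.

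The largest difference of any member was on a dim probe set named Rps13. It read 4.76 and 4.98 in the arrays numbered 1 and 6.65 and 6.85 in those numbered 2. The difference was 1.88 ± 0.13 (SE), or 3.68-fold, with a limma adjusted p of 0.144, a tied lowest value shared with other probe sets, and of 0.0017 with the intensity prior. This probe set is marked cross-hybridizing and lies on chromosome 7 at a site away from the Rps13 gene. The probe set at the gene itself, marked unique, read 5.01 and 5.14 against 4.90 and 4.60 and differed by -0.33. The 2 readings had opposite signs, so no direction can be given for Rps13 mRNA.

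Rpl30, Rpl17, Rps27l and Rpl6 had dim or moderate probe sets, marked unique, with low unadjusted p-values in the higher direction. The 20-probe set of Rpl30 read 5.51 and 5.69 in the arrays numbered 1 and 6.33 and 6.64 in those numbered 2. Its difference was 0.89 ± 0.14 (SE, limma adjusted p = 0.265, and 0.022 with the intensity prior). Rpl17, at the tunnel exit, read 5.34 and 5.06 against 5.76 and 5.92. Rps27l, a paralog of Rps27 known as a p53 target, read 6.26 and 6.20 against 6.73 and 6.76, a difference of 0.52. Rpl6, on its unique probe set, read 5.21 and 5.37 against 5.77 and 6.01. Replicate numbers did not overlap for any of these 4 probe sets.

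The 4 members lower in replicate 2 at an unadjusted limma p under 0.05 were all of dim or moderate signal. Rps16, of the small subunit head and on a probe set marked cross-hybridizing, read 4.76 and 4.77 in the arrays numbered 1 and 3.99 and 4.45 in those numbered 2, a difference of -0.55. Rplp0, the base of the acidic stalk and a common reference gene in quantitative PCR, read 5.91 and 5.81 against 5.40 and 5.66 (-0.33). Rpl26, at the tunnel exit, read 6.11 and 6.06 against 5.88 and 5.61, and Rps4l differed by -0.36. None of the 31 members with a mean of at least 8 was lower in replicate 2.

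**Figure D3:**
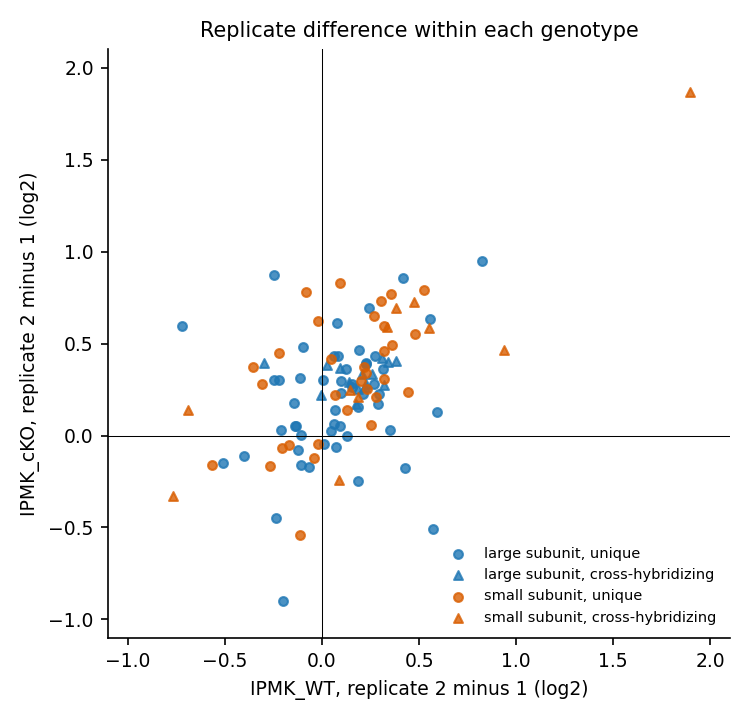
Replicate 2 minus replicate 1 within IPMK_WT (horizontal axis, log2) against the same difference within the arrays labelled IPMK_cKO (vertical axis, log2), 1 point per member. Of the 111 points 70 lie in the upper right quadrant and 15 in the lower left, and the dim Rps13 probe set lies far from the rest.

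The differences within the 2 genotypes share no array. Across the 111 members they correlated with r = 0.52 (Spearman rho 0.43), and across all 33793 probe sets with r = 0.24 (rho 0.23); this is a description over probe sets, which are not independent. Per gene, taking the probe set with the highest mean, 70 of 89 symbols were higher in replicate 2, 59 of them in both genotypes.

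**Figure D4:**
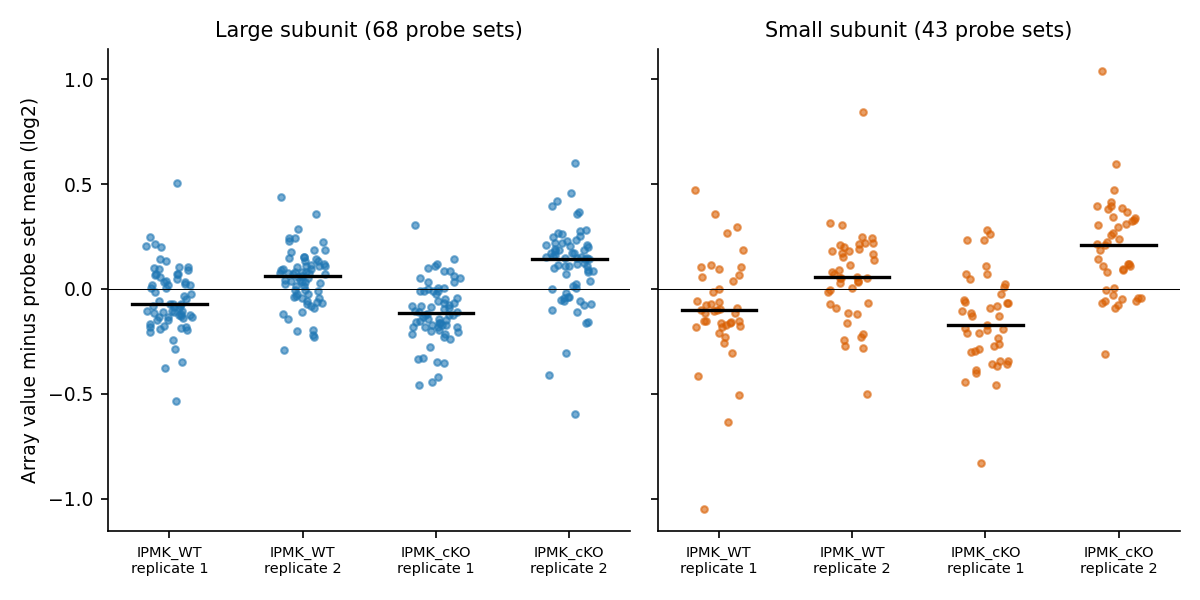
Deviation of each member from its own mean over the 4 arrays (log2), by array and subunit. Medians of the small subunit are -0.10 and -0.17 in the arrays numbered 1 of IPMK_WT and labelled IPMK_cKO, and 0.06 and 0.21 in those numbered 2.

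By position in the ribosome, the members followed no single pattern, and position was not separated from probe set level. Of the acidic stalk and 5S particle probe sets, only that of Rplp1 was bright (mean 11.12). The others had means from 4.52 (Rplp2) to 7.40 (Rpl5). In the acidic stalk, which recruits elongation factors, Rplp1 was higher in replicate 2 (11.08 and 10.94 against 11.17 and 11.31), whereas Rplp0 was lower and Rplp2 differed by -0.10. The 5S particle proteins Rpl5 and Rpl11, which also bind Mdm2 when ribosome assembly is disturbed, differed by -0.03 and 0.07 (the 2 Rpl5 probe sets) and 0.13, each with overlapping arrays. At the tunnel exit, 8 of 9 probe sets were higher, with a median of 0.22 and an unadjusted limma p under 0.05 for 4 higher and 1 lower (Rpl26), beside 6.6% and 5.51% of all probe sets. In the small subunit head, 10 of 13 were higher, with a median of 0.28 and 5 higher and 1 lower at that p (Rps16), beside the same 6.6% and 5.51%. By genotype the tunnel exit had a median of 0.03 and the head -0.01.

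Genes with several probe sets measured how far a reading depends on the probes. Of 20 such genes, 11 had readings of opposite sign by genotype and 6 by replicate number. For Rpl21 and Rpl30 the genotype readings were opposite and over 0.3 apart, and for Rpl21, Rpl3, Rpl41, Rps13 and Rps2 the replicate readings were. The Rpl41 probe set on chromosome 14, marked cross-hybridizing, was higher in replicate 2 by 0.39 (10.00 and 10.00 against 10.38 and 10.41), while the unique one at the gene differed by -0.04. For these genes the files do not show which reading stands for the mRNA.

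Paralogs and look-alikes had no common direction. Over their 10 probe sets the replicate median was 0.02, with a range of -0.36 to 0.52 and 5 higher, and the genotype median was -0.01. The testis paralog Rpl10l read 3.16, 3.17, 3.25 and 3.20 (IPMK_WT 1 and 2, then labelled IPMK_cKO 1 and 2), and the muscle paralog Rpl3l read 4.14, 4.03, 4.15 and 4.15; both are low on all 4 arrays. The retrogene Rps27rt followed the bright members, with 9.78 and 9.64 in the arrays numbered 1 and 10.11 and 10.23 in those numbered 2, on a probe set marked cross-hybridizing. Rps27 itself read 6.53 and 6.54 against 6.31 and 6.98, with overlap. Which mRNA the Rps27rt probe set reads was not tested.

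Splitting members by the start-site run did not separate the replicate difference far: the median was 0.21 over 39 probe sets with the run, 0.13 over 41 with an entry but no run, and 0.24 over 31 without an entry. By genotype these medians were 0.03, 0.01 and -0.03. The gap between the splits was not tested.

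Ribosomal proteins outside the symbol rule were read for comparison. Over their 7 probe sets, the replicate median was 0.20, with a range of -0.31 (Fau at its gene) to 0.37, and 6 were higher. Rpsa, the laminin-binding protein of the small subunit, read 6.36 and 6.39 in the arrays numbered 1 and 6.66 and 6.83 in those numbered 2 at its gene. The 66 probe sets with -ps symbols, left out by the rule, had a median of 0.23, with 55 higher and 11 lower. Replicate numbers did not overlap for 36 of those higher (54.5% of the 66) and for 6 of those lower. Of all probe sets, 22.0% were higher and 22.7% lower without overlap. Of the 111 members, 61 (55.0%) were higher and 13 lower without overlap. Mitochondrial ribosomal proteins, made for a separate ribosome, had a median of 0.06 over 78 probe sets.

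Other parts of the translation machinery had lower replicate medians than the members, and the gap was not tested. The share that did not overlap, higher in replicate 2, was 70.0% for elongation factors and 55.3% for initiation factors. It was 23.1% for ribosome biogenesis and 28.6% for the S6 kinases and regulators, beside 55.0% of members and 22.0% of all probe sets. Elongation factors had a median of 0.11, with 8 of 10 higher, 7 of them without overlap, and 2 higher at an unadjusted limma p under 0.05, beside 6.6% of all probe sets (Eef1d and Eef1g, subunits of the exchange factor, by 0.27 and 0.30). Initiation factors also had 0.11, with 25 of 38 higher, 21 without overlap, and 6 higher and 2 lower at that p, beside 6.6% and 5.51% of all probe sets. Ribosome biogenesis genes had 0.01 (22 of 39 higher) and the S6 kinases with the TOP-binding regulators 0.02 (9 of 14 higher). By genotype the medians of these 4 lists lay between -0.01 and 0.01.

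Markers of glia and of excitatory neurons moved with the replicate number as well. Astrocyte markers were higher in replicate 2 for 10 of 10 probe sets (median 0.48; mean levels 8.98 and 9.04 in the arrays numbered 1, 9.43 and 9.48 in those numbered 2). Microglia markers were higher for 12 of 12 (median 0.41; 7.35 and 7.28, then 7.74 and 7.71), and oligodendrocyte markers for 12 of 12 (0.25; 9.20 and 9.18, then 9.45 and 9.42). Excitatory neuron markers were lower for 9 of 10 (-0.23; 9.02 and 9.12, then 8.88 and 8.78). Replicate medians were -0.06 for endothelial, -0.07 for interneuron, -0.09 for hippocampal subfield, -0.05 for blood and 0.12 for choroid plexus markers. The choroid plexus median was -0.31 within IPMK_WT and 0.76 within the arrays labelled IPMK_cKO. The part of the cell type markers in the ribosomal protein result was not tested. In bulk tissue, fewer cells of a type and less RNA per cell cannot be told apart. By genotype, choroid plexus markers were lower for 9 of 9 (median -0.33) and blood markers higher for 5 of 5 (0.31). Within replicate numbers the choroid plexus median was -0.92 for replicate 1 and 0.16 for replicate 2, and the blood median was 0.43 and 0.03. These list medians therefore rested on replicate 1. The blood marker Alas2 was an exception, higher in the arrays labelled IPMK_cKO by 0.42 in replicate 1 and 0.32 in replicate 2. Genotypes did not overlap for 2 of the 5 blood markers, both higher, beside 12.4% of all probe sets.

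**Figure D5:**
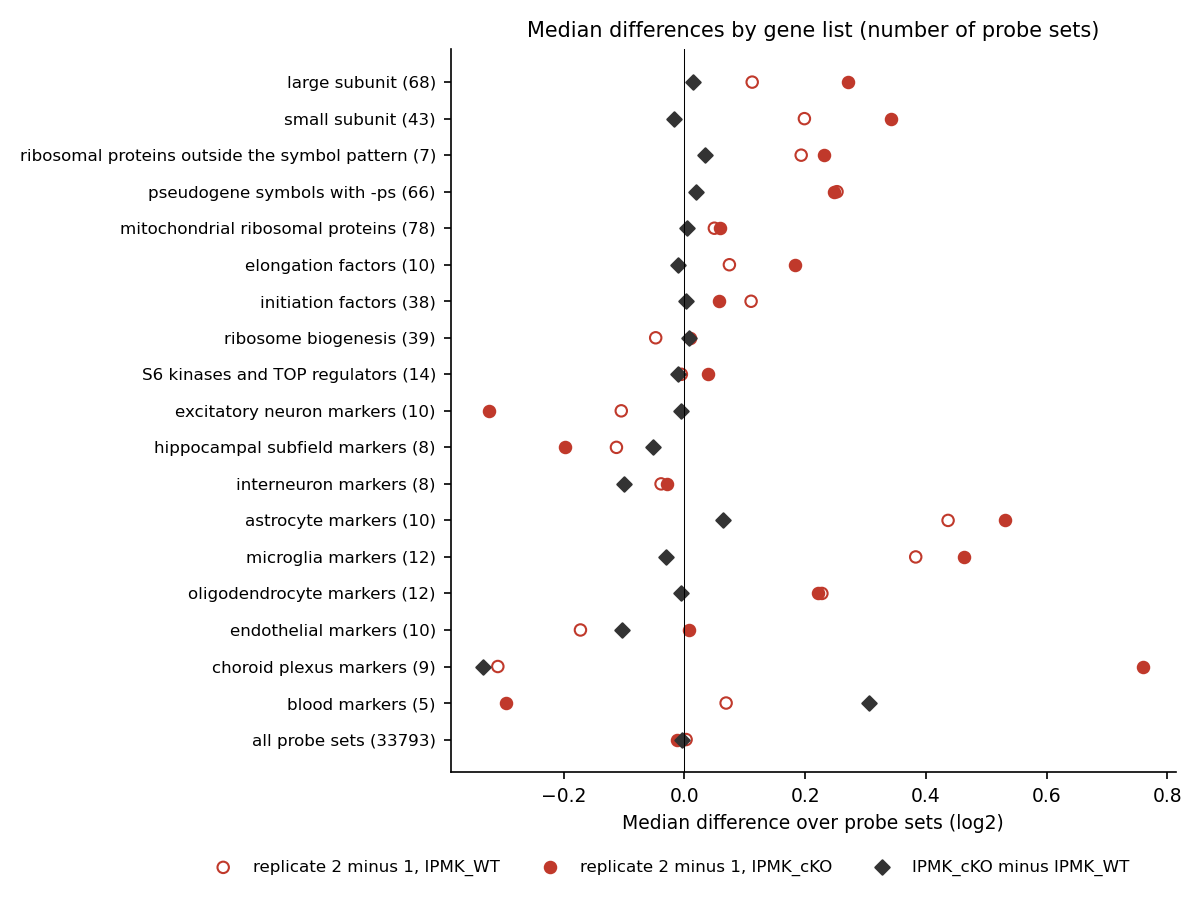
Median difference (log2) over the probe sets of each list, for replicate 2 minus replicate 1 within each genotype and for the genotype comparison; the number of probe sets is in parentheses. Large and small subunits lie at 0.11 and 0.20 within IPMK_WT and at 0.27 and 0.34 within the arrays labelled IPMK_cKO, and both lie at about 0 by genotype.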

How the data were processed

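The deposited values are log2 expression values that the authors made from the array scans by robust multi-array average (RMA) in Affymetrix Expression Console, as the submitters' processing notes name it; no counts or depth exist, and 2 arrays per group limit the precision. The matrix and the table of log values were identical (largest difference 0.0). The 5 lines without a probe set were dropped. Another 4 value columns, which repeat those used, and the columns of the authors' own comparison (fold change, local pooled error (LPE) p-values) were not used.

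limma 3.58.1 (R 4.3.3, lmFit and eBayes, Benjamini-Hochberg) was fitted on all 33793 probe sets, for arrays labelled IPMK_cKO minus IPMK_WT and for replicate 2 minus replicate 1. The fit was also run on simulated arrays. These had no difference between replicate numbers, so that run does not show how the fit behaves on these data. Alternatives were a replicate block, an intensity-trend or robust prior, median centring, renewed quantile normalization, a minimum mean of 4, unique probe sets, 1 probe set per gene, leaving out each array, and LPE rewritten from its description (100 bins, span 0.2). The limma p-values rest on the spread between these mice, moderated by a prior over all probe sets. The LPE p-values rest on a spread pooled over probe sets of like intensity. Without a block, the genotype error includes the difference between replicate numbers, and the replicate error includes that between genotypes.

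Members and lists were chosen with earlier results of these data known. Genes named were the 3 lowest p-values per direction and subunit, the stalk, 5S particle and Rps6, paralogs, ribosomal proteins outside the pattern, genes with discordant probe sets, and the lowest p per list; others named, such as the bright members, were chosen after their values were seen. Summaries used Python 3.11.15 and pandas 2.3.3, figures matplotlib 3.10.9. A few genes are counted in the summaries and not reported here by name.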

Additional observations from a re-analysis of the deposited data

How the results depend on the processing

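With 2 arrays per group, the genotype interval lay within 1.5-fold for 72 of 111 members only. Genotype: the count of members at an unadjusted limma p under 0.05 was 2, and 1 under median centring, renewed quantile normalization, 1 probe set per gene and the LPE test; with an array left out it was 3 to 7, while 795 to 1539 of all 33793 probe sets passed in the same settings (966 with all arrays). The median ran from -0.11 to 0.15 (large subunit) and from -0.14 to 0.19 (small subunit) with an array left out. Of these, 7 members and 0.19 came without replicate 1 of the arrays labelled IPMK_cKO. The adjusted count stayed at 0 in each of these settings.

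Replicate number: the adjusted count was 0, but 18 with the intensity trend and 17 with LPE; the unadjusted count of 37 ran from 19 to 35 with an array left out, and it was 19 without replicate 2 and 24 without replicate 1 of the arrays labelled IPMK_cKO. With an array left out, the unadjusted count over all probe sets fell as well. The fall in the member count alone therefore does not set the members apart. The small subunit median of 0.25 was 0.28 under median centring and 0.29 with 1 probe set per gene. That median was 0.18 to 0.35 with an array left out (large subunit 0.14 to 0.23). All 31 bright members stayed higher in each setting that left out an array. For the 30 without overlap this was fixed in advance, since leaving out 1 array cannot change their sign.

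The labels do not say that a replicate number pairs mice. With the replicate number as a block, the genotype comparison gave 0 members adjusted and 3 unadjusted, beside 0 and 1502 of all 33793 probe sets. With the genotype as a block, the replicate comparison gave 0 and 32 members, beside 0 and 3616 of all probe sets. Deviations of same-numbered arrays correlated at 0.24 over all probe sets, from only 2 pairs. For the 82 named probe sets, 2203 of 2228 values across the 14 settings kept their side of the threshold, 25 passed it (13 with the trend, 12 with LPE), and 136 changed sign, none of them called with all arrays, where no named probe set was called.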
